A study of Mus musculus with 15 samples.

Results

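Trim71, Lin28a, Lin28b, Sall4, Pou5f1, Nanog, Prdm14, Dppa4, Zfp42 and Klf4 are 10 genes of the early embryo and of pluripotent cells, and their promoters were examined for H3K4me3 in mBA cells. The list was chosen on earlier results of these data, Trim71 for peaks in CLPP-KO and WT + 2HG that WT lacked, and the other 9 genes as related regulators of pluripotency. All 10 were found among the 21770 protein-coding genes of the annotation. A gene had a promoter peak when an H3K4me3 peak overlapped the 2000 bp on either side of any of its annotated transcript starts. H3K4me3, histone H3 trimethylated at lysine 4, was mapped by ChIP–seq, and peaks are stretches where the antibody-enriched DNA exceeded the input DNA. The mBA cells are mouse brown adipocytes, which the sample labels call primary and the methods describe as an immortalised preadipocyte line from pooled animals, expressing SV40 large T-antigen and then differentiated. WT cells were untreated wild-type cells, WT + 2HG cells were wild-type cells given a cell-permeable form of d-2-hydroxyglutarate in DMSO, and CLPP-KO cells lacked the mitochondrial protease CLPP and received no 2HG. The medium of CLPP-KO cells held uridine, which is not stated for WT cells, so genotype and uridine cannot be told apart. The labels do not say whether untreated cells received DMSO. Each condition had 4 ChIP samples and 1 input sample. Peaks were called on the 4 ChIP samples together, giving 1 list per condition with 12342 peaks in the WT list, 14059 in the WT + 2HG list and 15118 in the CLPP-KO list. No spread between replicates can therefore be given, no test was made, and every difference below is a difference between 3 lists. The lists hold no read counts, so the depth behind a peak is unknown.

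TRIM71, also known as LIN41, is an RNA-binding ubiquitin ligase of the TRIM-NHL family that represses messenger RNAs in the early embryo and in embryonic stem cells. Its messenger RNA is a classic target of the let-7 microRNAs, and LIN28A and LIN28B block the maturation of let-7, so the 3 proteins act in one developmental timing pathway that is shut down as cells differentiate. SALL4, OCT4 (encoded by Pou5f1), NANOG, PRDM14, REX1 (encoded by Zfp42), DPPA4 and KLF4 are transcription factors or chromatin proteins of the pluripotent state, of which KLF4 is also used in many differentiated tissues. H3K4me3 sits around the start sites of active genes and, together with H3K27me3, at poised developmental genes. It is densest over CpG islands, stretches rich in the dinucleotide CpG.

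The sequence just upstream of a start site differed widely among these genes, and 4 stretches are shown as examples, 3 from marked genes and 1 from an unmarked gene, and are referred to below. Each is the 150 bases before a start site in GRCm39, written 5′ to 3′ on the strand of the gene, and capitals mark every CpG (the letters CG, which read the same on both strands). Trim71 has a single start site on the minus strand of chromosome 9, and its stretch is chr9:114393438-114393587. The Lin28b stretch is chr10:45362558-45362707, minus strand, before its outermost start site. The Klf4 stretch is chr4:55532529-55532678, minus strand, also before the outermost start site. The Zfp42 stretch, before its canonical start site, is chr8:43760153-43760302, minus strand.
Trim71: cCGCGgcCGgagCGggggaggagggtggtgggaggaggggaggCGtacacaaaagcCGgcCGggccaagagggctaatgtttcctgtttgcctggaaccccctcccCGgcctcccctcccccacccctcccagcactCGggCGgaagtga
Lin28b: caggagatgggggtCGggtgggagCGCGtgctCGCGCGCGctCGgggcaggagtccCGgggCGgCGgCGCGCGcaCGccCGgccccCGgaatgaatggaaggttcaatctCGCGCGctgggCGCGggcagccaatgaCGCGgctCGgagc
Klf4: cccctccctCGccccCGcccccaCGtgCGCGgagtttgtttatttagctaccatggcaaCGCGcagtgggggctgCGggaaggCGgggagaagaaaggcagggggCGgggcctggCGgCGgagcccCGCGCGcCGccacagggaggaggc
Zfp42: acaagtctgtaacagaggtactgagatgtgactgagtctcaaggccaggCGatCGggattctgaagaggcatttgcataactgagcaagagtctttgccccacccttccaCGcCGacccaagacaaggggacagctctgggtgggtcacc
The Trim71 stretch holds 10 CpG, the Lin28b stretch 25, the Klf4 stretch 16 and the Zfp42 stretch 4. Across all protein-coding genes the median in the 150 bases before the canonical start site is 5.0, and 87.7% of genes hold at least 1. The Lin28b and Klf4 stretches shown lie before other starts, and the 150 bases before their canonical starts hold 3 and 19. Trim71, Lin28b and Klf4 had a promoter peak in at least 2 of the lists and Zfp42 in none. Upstream CpG did not follow the marking throughout. The stretch before the internal Sall4 start at 168607166, near a peak in 2 lists, holds 5, whereas the stretches before unmarked starts of Prdm14 (13198351) and Lin28a (133745693) hold 8 and 7.

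In WT, 2 of the 10 genes had a promoter peak (Lin28b and Klf4), where 51.3% of all protein-coding genes had one. In WT + 2HG the count was 4 of 10 against 56.4% of protein-coding genes, and in CLPP-KO it was 4 of 10 against 58.2%. The same 4 genes were marked in both lists, namely Trim71, Lin28b, Sall4 and Klf4. By pattern, 2 genes (Lin28b and Klf4) were marked in every list, as were 50.6% of protein-coding genes. Trim71 and Sall4 were marked in WT + 2HG and CLPP-KO and not in WT, a pattern of 1033 protein-coding genes (4.75%). The remaining 6 genes, Lin28a, Pou5f1, Nanog, Prdm14, Dppa4 and Zfp42, were marked in no list, which held for 40.6% of protein-coding genes. Since Trim71 was chosen from this contrast, nothing is read from these shares about the genes as a set. WT + 2HG and CLPP-KO were both set against the same WT list.

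The strength of a peak is given as the percentile of its area under the curve within its own list, that is, the share of peaks in that list with a smaller area. The curve is the −log10 p combined over the replicates, so area and mean height rank the evidence for enrichment and not read coverage. Areas are not scaled between lists, so percentiles describe a rank and not an amount of H3K4me3. A gene of which fewer cells carry the mark and a gene with less of the mark per cell cannot be told apart in such lists. The median strongest promoter peak of a marked protein-coding gene lay at percentile 59.3 in the WT list, 60.6 in the WT + 2HG list and 62.0 in the CLPP-KO list.

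**Figure D1:**
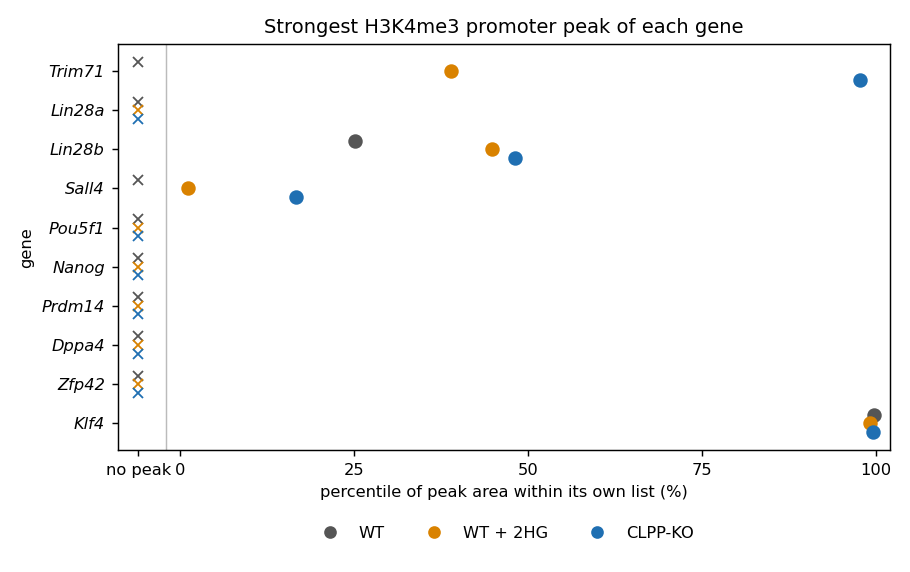
Percentile of the area of the strongest promoter peak of each gene (x axis, %) within the WT, WT + 2HG and CLPP-KO lists (colours), with crosses at the left for no promoter peak. Trim71 lies at 38.9 in WT + 2HG cells and 97.8 in CLPP-KO cells, Klf4 lies above 99 in every list, and 6 genes have no point.

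Trim71 spans 114336201 to 114393437 of chromosome 9 and has 4 exons. No WT peak lay within 2000 bp of its start site, and the nearest one, 74984 bp upstream, belonged to the promoter of Cnot10. In WT + 2HG a peak of 1537 bp ran from 114392152 to 114393688, with an area of 3500 and a summit −log10 p of 10.6. In CLPP-KO a peak of 2495 bp ran from 114391163 to 114393657, with an area of 24151 and a summit −log10 p of 20.5. The peak stood at percentile 38.9 of the WT + 2HG list and at percentile 97.8 of the CLPP-KO list, where it ranked 329th. By area it thus lay below the middle of one list and among the largest peaks of the other. No other annotated gene had its promoter window under either peak.

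The peaks covered the start site and lay mostly downstream of it. They reached 251 bp upstream in WT + 2HG cells and 220 bp in CLPP-KO cells, so that the upstream edges were 31 bp apart. Downstream, the WT + 2HG peak reached 1285 bp into the gene and the CLPP-KO peak 2274 bp, which was 989 bp further. Exon 1 of Trim71 is 2065 bp long, of which 1252 bp are 5′ untranslated region. The WT + 2HG peak covered 1286 bp of exon 1, the whole untranslated region and 34 bp of coding sequence. The CLPP-KO peak covered all 2065 bp of exon 1, with 813 bp of coding sequence, and a further 210 bp of intron 1. The summit was 505 bp downstream of the start site in WT + 2HG and 1283 bp downstream in CLPP-KO. The shared stretch of 1506 bp made up 98.0% of the WT + 2HG peak and 60.4% of the CLPP-KO peak, which was 1.62 times as wide.

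**Figure D2:**
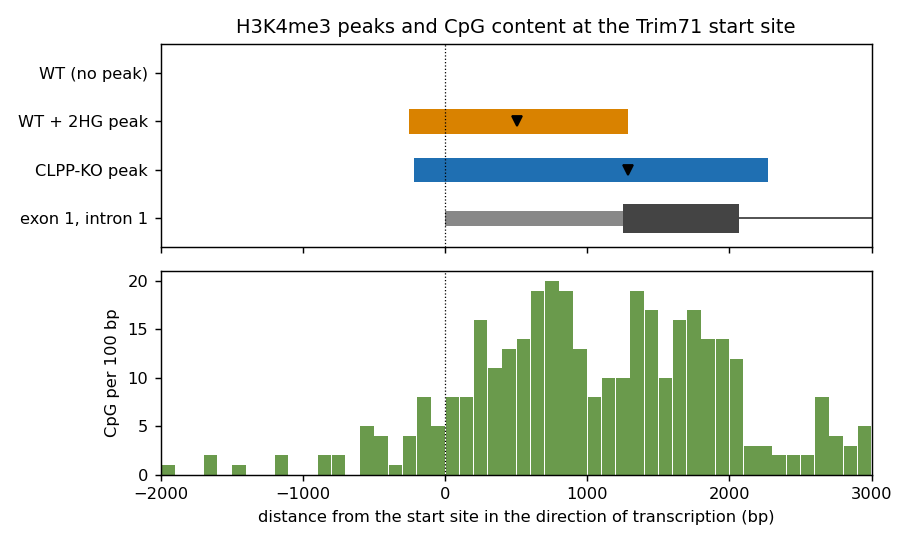
Upper panel, the Trim71 promoter peak of each list and exon 1 (thick where coding) by distance from the start site in bp, with triangles at the summits; lower panel, the number of CpG in each 100 bp. The WT + 2HG and CLPP-KO peaks start at nearly the same place upstream, and the CLPP-KO peak runs on 989 bp further, past the end of exon 1 where the CpG count drops.

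CpG were dense along most of both peaks, and sparser over the last part of the CLPP-KO peak past exon 1. The WT + 2HG peak held 187 CpG, or 12.2 per 100 bp, and the CLPP-KO peak held 313, or 12.5 per 100 bp. The ratio of observed to expected CpG, which corrects for base composition, was 1.06 and 1.05. The upstream stretch printed above, with 10 CpG in 150 bases, lies at the upstream margin of this region.

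By width, the Trim71 peak stood at percentile 86.8 of the WT + 2HG list and 98.4 of the CLPP-KO list. By mean height, the area divided by the width, it stood at percentile 22.1 and 79.0, and by summit −log10 p at 35.0 and 69.4. In both lists it ranked higher by width than by height. Most peaks that overlapped no WT peak were weak and narrow. The 3624 such peaks of CLPP-KO had a median percentile of 14.7 and a median width of 484.0 bp. Of these, 1 had a larger area than the Trim71 peak, and 4, the Trim71 peak itself included, were at least as wide. The 2624 such peaks of WT + 2HG had a median percentile of 11.7 and a median width of 454.0 bp. Of these, 44 had a larger area than the Trim71 peak, and 10, again with the Trim71 peak included, were at least as wide. These values come from the contrast that chose Trim71 and are given as a description.

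Among the 1033 protein-coding genes marked in WT + 2HG and CLPP-KO and not in WT, the median percentile was 17.3 in WT + 2HG cells and 24.4 in CLPP-KO cells. In CLPP-KO 2 of these genes lay above Trim71, and in WT + 2HG 47 did. Genes most like Trim71 were taken as the 5 with the smallest distance between the pairs of percentiles, a likeness over only 2 lists, and 3 of them are described here. Lbx1, a homeobox gene of muscle precursors and spinal cord, was closest, at percentile 35.8 in WT + 2HG cells and 91.7 in CLPP-KO cells. Hoxa10, a posterior Hox gene, followed with 34.1 and 86.9. Gbx2, a homeobox gene of the early hindbrain, lay at 46.4 and 88.1. These 3 genes were drawn from genes without a WT promoter peak, and none of their CLPP-KO peaks overlapped a WT peak. The width in CLPP-KO was 2440 bp for Lbx1, 1459 bp for Hoxa10 and 1791 bp for Gbx2.

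**Figure D3:**
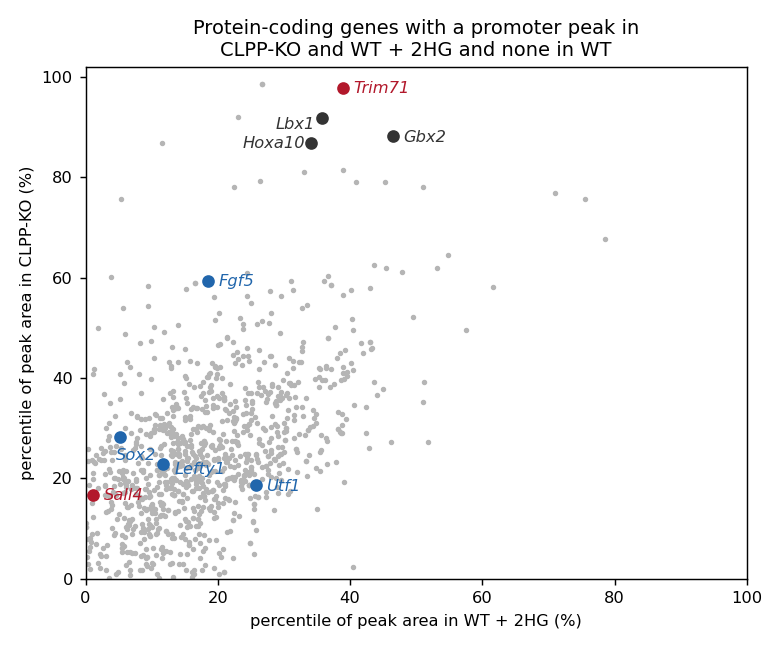
Each point is 1 of the 1033 protein-coding genes with a promoter peak in WT + 2HG and CLPP-KO and none in WT, by the percentile of its strongest peak in WT + 2HG (x axis, %) and CLPP-KO (y axis, %). Trim71 (38.9 and 97.8) lies near the top with Lbx1, Gbx2 and Hoxa10, and Sall4 (1.19 and 16.7) at the lower left with Sox2.

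Within 250 kb of the Trim71 start site lie the starts of 9 other protein-coding genes. None had the pattern of Trim71, a count near the 4.75% of all protein-coding genes with it. A promoter peak in all lists was found for 7 of the 9, where 50.6% of protein-coding genes had one. The other 2, the apoptosis regulator Bcl2a1c and the chemokine receptor Ccr4, had none in any list, as did 40.6% of protein-coding genes. Cnot10, a subunit of the CCR4–NOT deadenylase, was at percentile 55.1 in the WT list, 62.3 in the WT + 2HG list and 60.3 in the CLPP-KO list. Crtap, a collagen-modifying protein, was at 75.4, 67.2 and 75.4. Glb1, the lysosomal β-galactosidase, and Tmppe share a peak at 82.1, 91.2 and 90.7. Dync1li1, a dynein light intermediate chain, was at 88.9, 94.1 and 89.1. Cmtm6, a regulator of PD-L1, was at 47.6, 62.1 and 53.7, and Cmtm7 at 65.5, 87.3 and 84.4. Trim71 was the 1 gene of this interval that was marked in WT + 2HG and CLPP-KO and not in WT. It was chosen for that pattern, so nothing is read from its being alone.

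Lin28b, whose product blocks let-7 maturation, was marked in every list, but not at its canonical start site. It occupies 45252646 to 45362557 of chromosome 10, minus strand. Its canonical start, at 45346356, was 15590 bp from the nearest peak in the WT list, 15350 bp in the WT + 2HG list and 15333 bp in the CLPP-KO list. The peak lay at 4 upstream alternative starts, from 45361873 to 45362557. The WT + 2HG and CLPP-KO peaks covered all 4, and the WT peak ended 73 bp short of the one at 45361873. In WT it was 682 bp wide (45361946 to 45362627) and stood at percentile 25.2, in WT + 2HG it was 1331 bp wide (45361706 to 45363036) at percentile 44.9, and in CLPP-KO it was 1325 bp wide (45361689 to 45363013) at percentile 48.2. The WT + 2HG and CLPP-KO peaks were within 6 bp of each other in width and extended past the WT peak at both ends. The WT + 2HG peak was 1.95 times and the CLPP-KO peak 1.94 times as wide as the WT peak. The canonical start had 19 CpG in the surrounding 1000 bp (observed to expected ratio 0.457), whereas the marked starts had 113 to 153 (1.08 to 1.19). The stretch before the outermost of them, shown above, carries 25 CpG. Lin28a, the paralogue, had no promoter peak in any list. Its nearest peak was 40647 bp away in WT, at Hmgn2, and 8439 bp in WT + 2HG cells and 8572 bp in CLPP-KO cells, in both at Dhdds and at percentile 0.107 and 11.2.

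Sall4, a zinc-finger partner of OCT4 and NANOG, had the same pattern as Trim71 with much weaker peaks. The gene occupies 168590252 to 168609863 of chromosome 2, minus strand. The WT + 2HG peak, from 168607729 to 168607902, was 174 bp wide and stood at percentile 1.19, with a summit −log10 p of 3.95. The CLPP-KO peak, from 168607664 to 168608391, was 728 bp wide and stood at percentile 16.7, with a summit −log10 p of 5.33. Both lay within intron 1 and covered no start site. Their distance from the canonical start at 168609217 was 1315 bp in WT + 2HG cells and 826 bp in CLPP-KO cells, and from an internal start at 168607166 it was 563 and 498 bp. Gm14261, a lncRNA gene, has its promoter window over the same peaks, so they cannot be assigned to Sall4 alone. The nearest WT peak was 14131 bp from the closest Sall4 start, at the neighbouring Atp9a. The peak was not retained in WT + 2HG when a summit p of at most 1e-05, an area of at least 1000 or lists of equal size were required, and in CLPP-KO it was lost with the area and the list-size conditions. The Trim71 peaks met all 3 conditions. Trim71 was chosen for its strong gain in these lists, so nothing is read from that contrast with Sall4.

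Klf4 had one of the largest peaks of every list by area and width, though not by height. The gene occupies 55527139 to 55532528 of chromosome 4, minus strand. WT had a peak of 2812 bp at percentile 99.8 and, 194 bp upstream of it, another of 795 bp at percentile 66.2. WT + 2HG had a single peak of 3519 bp at percentile 99.2, and CLPP-KO a single peak of 3772 bp at percentile 99.6. The total length covered was thus 3607, 3519 and 3772 bp, a narrower range than the widths of the strongest peaks. By mean height the strongest peak stood at percentile 91.9 of the WT list, 72.4 of the WT + 2HG list and 75.8 of the CLPP-KO list, and by summit −log10 p at 89.9, 61.8 and 76.7. The lncRNA gene Gm34343 has its promoter window over the same peaks.

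The other 5 genes without a peak are core factors of the pluripotent state. Pou5f1 was the nearest to the 2000 bp limit, with a peak 6804 bp from its closest start in the WT list, 6827 bp in the WT + 2HG list and 6658 bp in the CLPP-KO list. That peak lies over the promoters of Tcf19 and Cchcr1 and stood at percentile 63.9, 48.0 and 60.7. Sall4, at 563 bp in WT + 2HG cells and 498 bp in CLPP-KO cells, was the gene nearest to the limit from inside. Around Nanog the nearest peak was 57035, 56929 and 57016 bp away. For Prdm14, a repressor of differentiation genes in the germ line, it was 133633 bp away in WT and 133573 bp in CLPP-KO, at Slco5a1, and 35853 bp in WT + 2HG, where a peak at percentile 7.93 lay in no promoter window. For Dppa4 it was 709615, 709517 and 709635 bp away, at the shared promoter of Cip2a and Dzip3. Zfp42 lay furthest from any peak, with 1627568 bp in the WT list, 1627598 bp in the WT + 2HG list and 1627624 bp in the CLPP-KO list, at Fat1. None of these 6 unmarked genes had a peak in CLPP-KO closer than 6658 bp.

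The rule did not use sequence, and CpG were denser at the marked start sites than at most of the unmarked ones. In the 1000 bp around the canonical start, a promoter was counted as CpG-rich when its observed to expected ratio was at least 0.6 and its GC content at least 50%. Trim71 had 78 CpG and a ratio of 0.862, Sall4 had 64 and 0.891, and Klf4 had 115 and 0.959. These were the 3 CpG-rich promoters of the 10 genes. The ratio was 0.318 for Pou5f1, 0.307 for Nanog, 0.406 for Dppa4, 0.380 for Lin28a, 0.502 for Prdm14 and 0.546 for Zfp42, and 0.457 at the unmarked canonical start of Lin28b. The split was not complete once other start sites were counted. An alternative start of Prdm14 had a ratio of 0.792, and 1 of Lin28a had 0.601, and no list had a peak at either. Conversely, 2 Sall4 starts within 2000 bp of a peak in WT + 2HG and CLPP-KO had low ratios, 0.407 at 168609863 and 0.550 at 168607166, the first below those of several unmarked Zfp42 and Prdm14 starts. With 10 genes chosen from the data, this is a description. Over all protein-coding genes, 46.0% were CpG-rich, with 79.7% of the genes marked in all lists, 52.7% of those with the pattern of Trim71 and 4.75% of those marked in no list. Of the 10024 CpG-rich genes, 87.6% were marked in all lists, 5.43% had the pattern of Trim71 and 4.19% were marked in none. Of the 11746 others, 19.0% were marked in all lists, 4.16% had the pattern of Trim71 and 71.7% were marked in none.

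**Figure D4:**
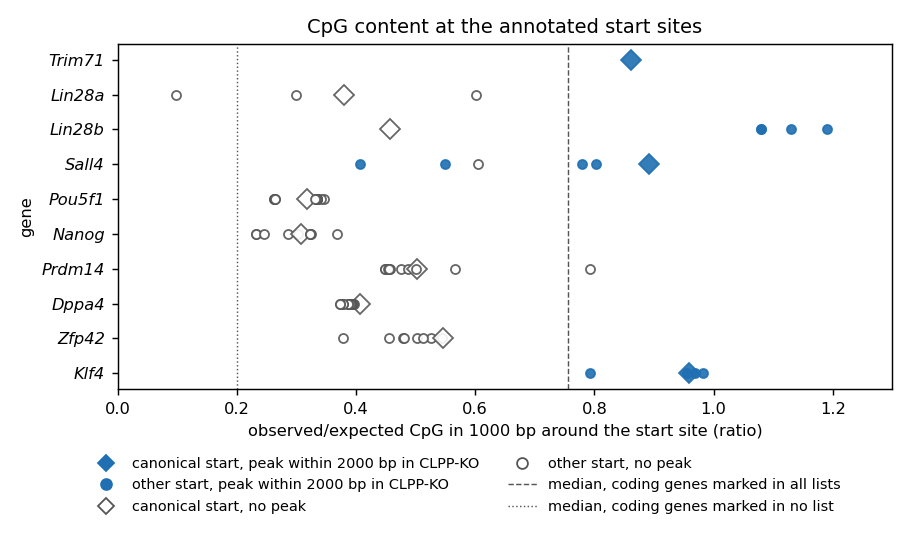
Observed to expected CpG ratio (x axis) in the 1000 bp around each annotated start site of the 10 genes, filled where CLPP-KO had a peak within 2000 bp, with the medians of protein-coding genes marked in all lists (0.755) and in no list (0.200) as lines. Trim71, Sall4 and Klf4 are filled with canonical ratios of 0.862 to 0.959, Lin28b is filled at its upstream starts only, and the open points of the 6 unmarked genes lie mostly below 0.6.

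Other genes of the pluripotency network were counted in the same way. Of 23 further pluripotency factors, 10 had a promoter peak in the WT list, 13 in the WT + 2HG list and 14 in the CLPP-KO list. Sox2, the partner of OCT4, was marked in WT + 2HG (percentile 5.19) and CLPP-KO (28.2) only, as was Utf1 (25.7 and 18.6). Esrrb, an orphan nuclear receptor of naive pluripotency, was marked in CLPP-KO only, a pattern of 2.51% of protein-coding genes, at percentile 13.4. The 10 marked in every list included Klf2 at percentile 99.7, 98.4 and 99.2, Klf5 at 95.3, 94.9 and 79.2, Dnmt3b at 57.9, 85.1 and 75.3 and Myc at 78.3, 75.4 and 69.9. The other 9, among them the Zscan4 and Dppa genes, were marked in none. Of 10 signalling genes, 4 had a promoter peak in WT and 6 in each of the other lists. The 2 that differed were Lefty1, a Nodal antagonist, at 11.8 in WT + 2HG cells and 22.9 in CLPP-KO cells, and Fgf5, a marker of the primed state, at 18.5 and 59.3. Lifr, Il6st, Stat3 and Nodal were marked in every list, Lifr at 74.1, 83.3 and 85.4. Together 14 of these 33 genes were marked in the WT list, 19 in the WT + 2HG list and 20 in the CLPP-KO list, and 13 in no list. Of all protein-coding genes, 51.3, 56.4 and 58.2% were marked in these lists, so the WT + 2HG and CLPP-KO counts lay near the shares of all genes. The pattern of Trim71 was found for 5 of the 33, against 4.75% of protein-coding genes. Each of the 5 marked in WT + 2HG and CLPP-KO but not in WT had a lower percentile than Trim71 in both lists. Trim71 was chosen for its strong gain in these lists, so nothing is read from that difference.

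The genes of let-7 processing and decay, and those listed as let-7 or TRIM71 targets, were marked throughout. Of all protein-coding genes, 50.6% were marked in every list. All 9 genes of let-7 processing and decay had a promoter peak in every list, with a lowest percentile of 58.1 in the WT list, 63.2 in the WT + 2HG list and 62.4 in the CLPP-KO list. Tut4, the uridylyltransferase that LIN28A recruits to pre-let-7, was at 93.0, 97.6 and 97.5, and Ago2 at 88.8, 97.6 and 96.7. All 10 genes listed as let-7 or TRIM71 targets were marked in every list. Hmga2, an architectural chromatin protein and well-known let-7 target, was at 99.8, 99.6 and 99.7. Igf2bp2 was at 99.1, 99.7 and 99.4, Igf2bp1 at 96.0, 96.2 and 99.2, and Hmga1 at 82.3, 98.0 and 98.9. These are the 4 highest in CLPP-KO, and the lowest percentile of the targets was 22.0 in the WT list (Ccnd1), 28.2 in the WT + 2HG list (Ccnd1) and 43.2 in the CLPP-KO list (Ccnd2). The 3 other TRIM-NHL genes were also marked in every list, Trim2 at 81.3, 61.8 and 74.0, Trim3 at 84.4, 66.1 and 62.7 and Trim32 at 17.7, 35.4 and 36.0. Trim71 itself was chosen for its lack of a WT peak, so it is not compared with these 3 genes.

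**Figure D5:**
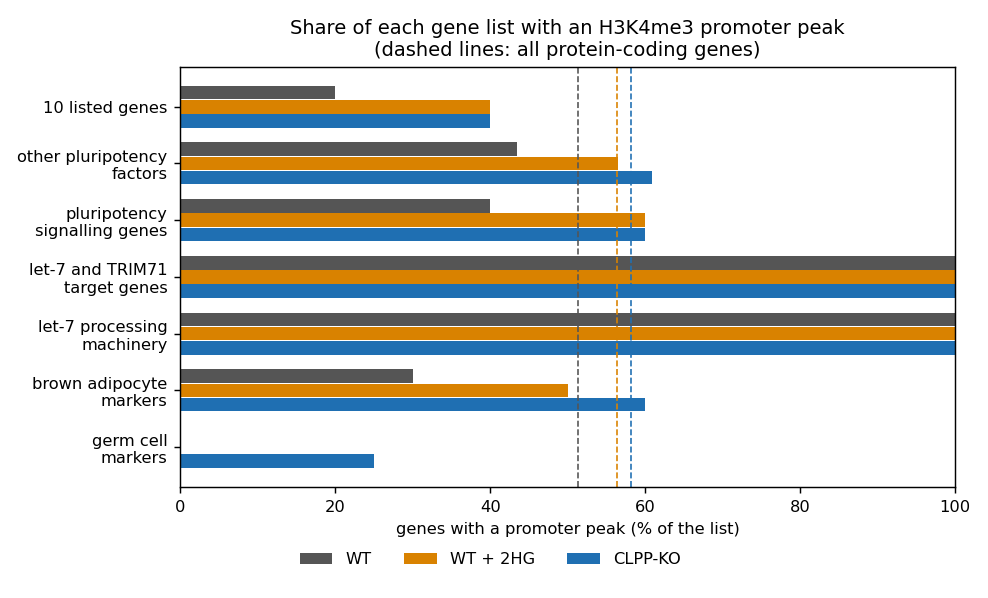
Share of each gene list with a promoter peak (x axis, %) in WT, WT + 2HG and CLPP-KO, with dashed lines at the share of all protein-coding genes (51.3, 56.4 and 58.2%). The 10 listed genes lie below the lines in every list, and the let-7 target and processing genes lie at 100% in all of them.

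The labelled cell type was checked with 10 brown adipocyte markers. Pparg, Cebpa and Prdm16 were marked in every list, Pparg at percentile 17.0, 70.3 and 37.3, Cebpa at 94.9, 94.0 and 98.8 and Prdm16 at 93.5, 99.7 and 96.1. Plin1 (21.0 and 33.8) and Cidea (21.3 and 33.6) were marked in WT + 2HG and CLPP-KO only, and Ebf2 in CLPP-KO only (22.2). Fabp4, Adipoq, Ppargc1a and the defining thermogenic gene Ucp1 had no promoter peak in any list, so that 4 of the 10 markers were unmarked under every condition, near the 40.6% of all protein-coding genes. The markers with a promoter peak numbered 3 in the WT list, 5 in the WT + 2HG list and 6 in the CLPP-KO list, where 51.3, 56.4 and 58.2% of protein-coding genes had one. The WT count lay below the share of all genes, and the WT + 2HG and CLPP-KO counts lay near it. With 10 markers and no test, neither a difference from other genes nor a likeness to them is read from these counts. Markers of other cell types were counted in the same lists. Of 8 germ cell markers, none was marked in WT or WT + 2HG and 2 in CLPP-KO, Dazl (19.9) and Dmrt1 (20.4). Of 7 trophoblast and extraembryonic markers, 3 were marked in the WT list, 3 in the WT + 2HG list and 4 in the CLPP-KO list, where Cdx2 (10.7) was added. The 3 were Gata6 at 99.0, 98.8 and 98.8, Eomes at 9.88, 39.6 and 53.9, and Sox7 at 13.7, 34.3 and 40.6. Of 5 preadipocyte markers, 4 were marked in WT and WT + 2HG and 5 in CLPP-KO, with Thy1 (22.2) added, and Pdgfra was the highest at 78.3, 85.8 and 79.3. None of 4 macrophage markers was marked. Of 4 endothelial markers, Kdr was marked in every list, at 46.7, 45.6 and 61.6. Of 4 myogenic markers, Myod1 (10.7) and Pax7 (53.0) were marked in CLPP-KO only. Over the germ cell, extraembryonic, macrophage, endothelial and myogenic lists, 4 of 27 genes were marked in the WT list, 4 in the WT + 2HG list and 9 in the CLPP-KO list, where 51.3, 56.4 and 58.2% of all protein-coding genes were. The 5 marked in CLPP-KO only compare with 2.51% of protein-coding genes with that pattern. The part of other cell types in the Trim71 peaks was not tested.

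Clpp, the deleted gene, had a promoter peak at percentile 39.9 in the WT list, 45.2 in the WT + 2HG list and 43.4 in the CLPP-KO list, with a width of 661, 664 and 629 bp. A promoter peak does not check a deletion, and the genotype was taken from the labels.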

How the data were processed

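Per the labels and the methods, the authors trimmed reads with fastp 0.23.4, mapped them to GRCm39 with BWA 0.7.17 and called peaks with Genrich 0.6.1 on the 4 replicates of each condition against 1 input. Deposited values per peak are a signal (area under the curve), a summit −log10 p, a score limited to 1000 and an unfilled q field. Other deposited fields give the position of the summit. Depth per sample cannot be read from the lists.

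The members and the gene lists were chosen with earlier results of these data known. Start sites came from GENCODE M39 (317013 distinct start sites). A peak counted when it overlapped the 2000 bp around a start by at least 1 bp. All 107 listed symbols matched, Tdgf1 by its current name Cripto. Named genes were the 10 members, protein-coding genes starting within 250 kb of Trim71, the 5 most like it, list genes whose marking differed between lists and up to 4 others per list with the highest CLPP-KO percentile. Upstream sequences were read from the GRCm39 genome. Alternatives changed the window, the transcripts, the peak threshold, the list sizes and the ranking. The scripts recovered 60 of 60 genes planted in simulated data and equalled bedtools 2.31.1 on 3 of 3 lists. Python 3.11.15, numpy 2.4.6, pandas 2.3.3 and matplotlib 3.10.9 were used. Some of the genes and sequences that these rules select are not reported here.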

Additional observations from a re-analysis of the deposited data

How the results depend on the processing

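No paired analysis was possible because each condition has 1 peak list called on its 4 replicates together, and for the same reason no replicate could be left out. Windows of 1000 or 5000 bp, starts of protein-coding transcripts only and summits required in the window left the counts of marked genes among the 10 as reported. These alternatives were not run for the other gene lists. Of the 10 genes, those marked in WT + 2HG and CLPP-KO but not in WT fell from 2 to 1 (Trim71) under stricter settings. That held with a summit p of at most 1e-05, with an area of at least 1000 and with lists of 12342 peaks each. Under the first of these Sall4 counted as marked in CLPP-KO only, 1 gene against 0. Trim71 was chosen for its strong gain, so nothing is read from its being retained. Ranked by width, summit p, mean height and in lists of equal size, Trim71 stood at percentile 86.8, 35.0, 22.1 and 30.4 in WT + 2HG and at 98.4, 69.4, 79.0 and 97.3 in CLPP-KO. Over all annotated genes, 2.31% had the pattern of Trim71 in place of 4.75%. Of the percentiles of the other genes under these rankings, 25 lay outside a 95% binomial interval around the reported percentile and 5 lay inside it. That interval treats the peaks of a list as draws, so it is a yardstick only and measures no spread between replicates. Peaks absent from a list may lie under its threshold, and the lists do not show how far.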

Other observations

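Between the Trim71 start and the Cnot10 promoter, WT + 2HG and CLPP-KO each had 1 further peak, 19718 bp upstream of the Trim71 start in WT + 2HG and 19536 bp upstream in CLPP-KO, at percentile 2.19 and 2.26 of its list. The peaks, from 114413155 to 114413564 and from 114412973 to 114413247 of chromosome 9, overlapped each other but no WT peak. Another pair lay 188485 and 188619 bp upstream, at percentile 30.0 and 24.0, again with no WT peak. Downstream of the gene, a peak from 114196935 to 114197610 (CLPP-KO) was present in all lists, at percentile 13.4 in the WT list, 23.2 in the WT + 2HG list and 30.4 in the CLPP-KO list.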
